A study of Bos taurus with 12 samples.

Results

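The leukocyte miRNAs of the bovine mammary gland were taken as a group of 5 mature miRNAs, bta-miR-142-5p, bta-miR-142-3p, bta-miR-150, bta-miR-155 and bta-miR-223, chosen by name from the 388 mature miRNAs of the deposited table. Each was listed once, and all 5 exceeded 0.5 TPM in every library, so a limit on low values removed none of them. The study profiled small RNA in mammary biopsies from 12 healthy, multiparous Chinese Holstein cows, 3 in each of 4 groups, with 1 cow per library. HP (high milk protein percentage) and LP (low) were lactating cows, biopsied when 70 to 85 days in milk. HD (high) and LD (low) were dry cows, biopsied 20 to 39 days ahead of calving, when 24 to 35 days had passed since dry-off. The phenotype was assigned from milk records of the previous lactation, and each biopsy was mammary tissue from the rear udder, whose cell content was not inspected by eye. The direction of every phenotype difference follows the column names HP, LP, HD and LD, matched to the sample labels, and the values hold no separate check of the phenotype. The lactating and the dry cows were different animals, so a stage difference is also a difference between cows.

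A miRNA is cut from a hairpin precursor, and the 5p and 3p arms of the hairpin give separate mature miRNAs that pair with different target mRNAs. The hairpins behind these 5 miRNAs are known for their high expression in white blood cells, and they are therefore used as markers of those cells in solid tissues. The mir-142 hairpin, which gives both miR-142-5p and miR-142-3p, is expressed across the haematopoietic lineages. miR-150 is abundant in mature resting lymphocytes, where it restrains the transcription factor MYB. miR-155 is induced when lymphocytes and macrophages are activated, and miR-223 is a miRNA of the granulocyte and monocyte lineage. The mammary gland holds resident macrophages and lymphocytes, and leukocytes are known to enter the gland when milk removal stops. In the RefSeq annotation of the ARS-UCD2.0 assembly, MIR142 lies within TSPOAP1 and MIR223 within VSIG4, while MIR155 sits next to MRPL39. MIR142 and MIR223 each also lie within a gene annotated as a long noncoding RNA.

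Expression is given in the unit that the authors call TPM, a share of the reads counted over the table (each library sums to 999952 to 999976) with no correction for length. A normalized TPM is the TPM divided by a size factor of the library (the median of ratios over miRNAs). The reads implied by the values ranged from 6026620 to 13373813 in the lactation libraries and from 11047233 to 23577192 in the non-lactating libraries, so depth differed between the stages. The size factors were 1.476 in both HD1 and LD1, and 0.751 to 1.12 in the other libraries. LD1 had the lowest mean correlation with the libraries of its own group (r = 0.968 across miRNAs, against 0.975 to 0.988 in the others), and no library was left out. The miR-200 family with miR-205, which mark epithelium, summed to 14978 to 44371 TPM across the libraries.

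Summed over the 5 miRNAs, the leukocyte group held 0.515% of the reads of LP1, the lowest library, and 2.05% of the reads of LD1, the highest. The sums were 5790 to 8911 TPM among the HP cows and 5146 to 6981 TPM among the LP cows. Among the dry cows they were 8262 to 10428 TPM for HD and 10543 to 20486 TPM for LD. Most of these reads came from 1 miRNA. miR-142-5p made up 57.4% to 91.8% of the sum, so the sum describes miR-142-5p more than the other 4. In bulk tissue, fewer cells of a type and less miRNA per cell cannot be told apart, and this holds for every value given here.

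miR-142-5p was the highest of the group in 12 of 12 libraries, at 7903 ± 3682 TPM (mean ± SD, n = 12), which is rank 21 of the 388 miRNAs. miR-150 followed with 974 ± 648 TPM (rank 71), then miR-155 with 299.7 ± 162 TPM (rank 97), miR-142-3p with 187 ± 107 TPM (rank 114) and miR-223 with 25.3 ± 10.2 TPM (rank 185; SD, n = 12 for each). The order was the same in every library at both ends, since miR-142-3p exceeded miR-223 in 12 of 12 libraries. In the middle the neighbours exchanged places. miR-150 exceeded miR-155 in 9 of 12 libraries, and miR-155 exceeded miR-142-3p in 4 of 6 lactation libraries and in 6 of 6 non-lactating libraries. The lowest single value, miR-223 in LD3, was 8.23 TPM and rests on 172 implied reads (95% Poisson interval 7.05 to 9.56 TPM), which covers counting error only.

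**Figure D1:**
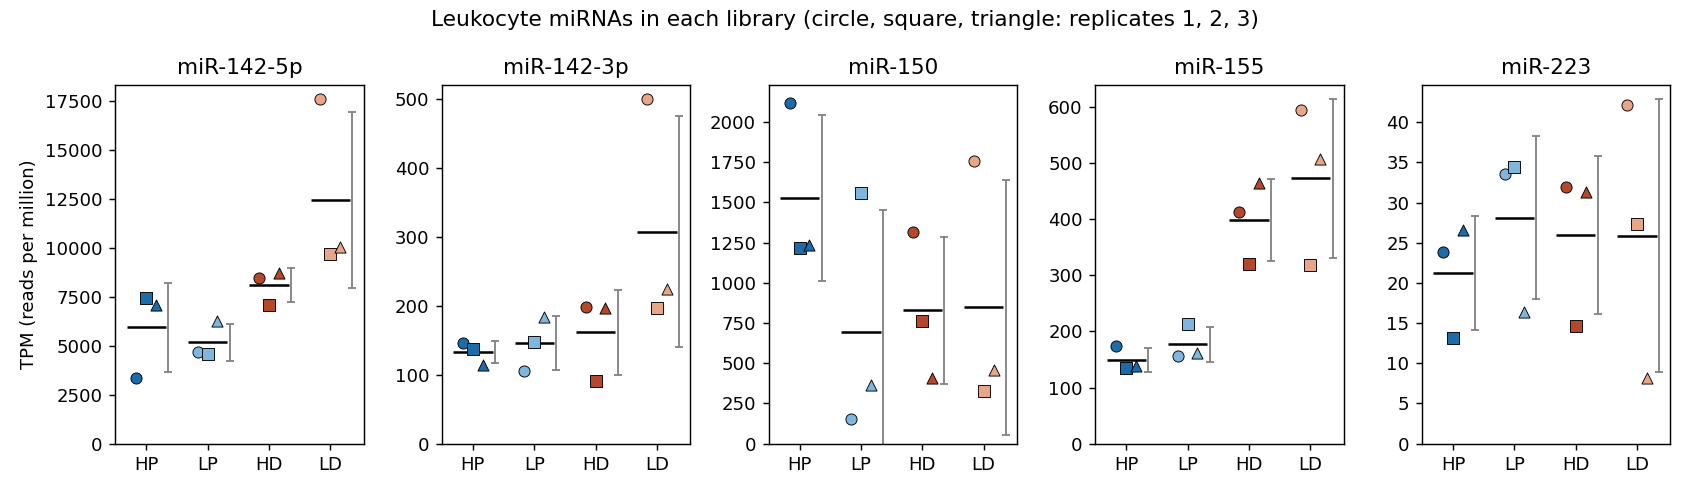
Level of each leukocyte miRNA (vertical axis, TPM, linear and starting at 0) in the 12 libraries of HP, LP, HD and LD. Points are single cows, horizontal lines are group means and grey bars are 1 SD (n = 3), drawn only above 0; miR-155 separates the lactation groups from the non-lactating groups, and miR-150 is low in LP1 and LP3.

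The first comparison asked how leukocyte miRNAs differed between lactation and the non-lactating period. Both miRNAs that passed the test were lower in lactation: miR-155 by a wide margin and miR-142-5p by a smaller one. miR-142-3p, miR-150 and miR-223 did not pass. The fit used the log2 of normalized TPM plus 1 over the 12 libraries with 4 group means, and the difference is lactation minus non-lactating on that log2 scale.

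miR-155 was 174, 135 and 138 TPM in HP1 to HP3 and 156, 213 and 162 TPM in LP1 to LP3. In the non-lactating period it was 413, 320.35 and 464 TPM in HD1 to HD3 and 595, 318 and 507 TPM in LD1 to LD3. Every lactation library lay below every non-lactating library on both the TPM and the normalized scale, and a two-sided exact permutation test gave p = 0.00216, which for 6 against 6 is the smallest value. The log2 difference was -1.29 (SE 0.21, 95% interval -1.74 to -0.83, limma adjusted p = 0.000415), which is 0.410 times the non-lactating level. It held in both phenotypes, as HP lay wholly below HD and LP wholly below LD. For 3 libraries against 3 the exact p of 0.1 is the smallest possible and passes no threshold.

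miR-142-5p was 3324, 7406 and 7059 TPM in HP1 to HP3 and 4697, 4567 and 6255 TPM in LP1 to LP3. In the non-lactating period it was 8467, 7075 and 8708 TPM in HD1 to HD3 and 17588, 9674 and 10015 TPM in LD1 to LD3. All but 1 of the 6 lactation libraries lay below every non-lactating library, the exception being HP2, which exceeded HD2, and on the normalized scale 2 of the 6 lay below them all. The log2 difference was -0.77 (SE 0.23, 95% interval -1.26 to -0.27, limma adjusted p = 0.0165), or 0.588 times the non-lactating level. The exact permutation test gave p = 0.00433 on TPM and p = 0.0303 on normalized TPM. Among the low protein cows LP lay wholly below LD, and among the high protein cows HP and HD overlapped. Whether the phenotypes differed in this was tested as an interaction, which did not pass.

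miR-142-3p, from the other arm of the same hairpin, was 146, 138 and 115 TPM in HP1 to HP3 and 106, 148 and 184 TPM in LP1 to LP3. It was 198, 90.7 and 197 TPM in HD1 to HD3 and 500.1, 197 and 224 TPM in LD1 to LD3. HD2 was the lowest library of all, below every lactating cow, while LD1 was the highest. The log2 difference of -0.48 (SE 0.24, limma adjusted p = 0.123) had the direction of miR-142-5p without passing the threshold. Without HD2 it was -0.65 with an adjusted p of 0.0326.

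miR-150 and miR-223 overlapped broadly between the stages. The 6 lactation libraries of miR-150 ran from 155 to 2121 TPM with a median of 1228 TPM, and the 6 non-lactating libraries from 327 to 1760.2 TPM with a median of 608 TPM (log2 difference 0.34, SE 0.43, limma adjusted p = 0.553). On normalized TPM its mean in HP was 2.30 times that in HD, and its mean in LP 0.890 times that in LD. The exact permutation p was 0.1, the smallest possible, and 0.7. The interaction did not pass. miR-223 ran from 13.2 to 34.5 TPM in lactation and from 8.23 to 42.2 TPM in the non-lactating period (log2 difference 0.13, 95% interval -0.63 to 0.89, limma adjusted p = 0.792). Those intervals still allow a difference in either direction, so the test does not show that miR-150 or miR-223 were alike in both stages.

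Of all 388 miRNAs, 44.3% passed the adjusted threshold between the stages, 22.2% in the lower direction, so 2 of 5 members called is a share near that of the table as a whole. Libraries of the stages did not overlap in TPM, with lactation the lower, for 9.28% of all miRNAs, and miR-155 was the 1 member among them. The median log2 difference was -0.48 over the 5 members and -0.01 over all miRNAs. The median over all miRNAs was -0.10 without size factors. Under the alternatives run and with any 1 library left out, miR-155 and miR-142-5p stayed past the threshold, with the highest adjusted p for miR-142-5p (0.0486) without HD3.

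**Figure D2:**
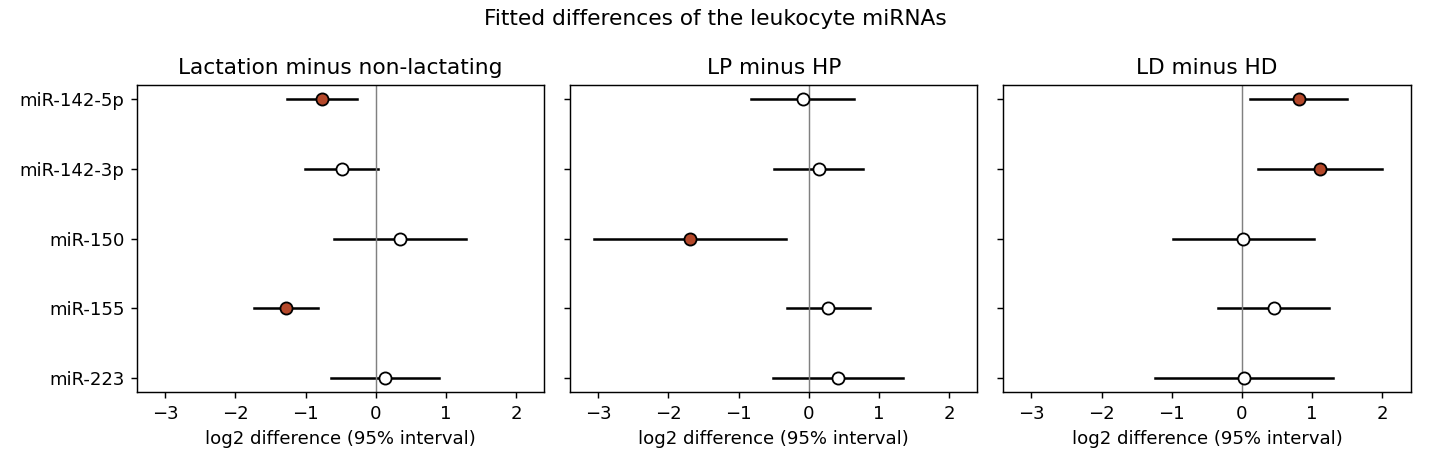
Fitted log2 difference (horizontal axis, with 95% intervals) of each leukocyte miRNA for lactation minus non-lactating, LP minus HP and LD minus HD. Filled points passed the rule of their panel, an adjusted p under 0.05 for stage and DE for the phenotypes; miR-155 and miR-142-5p lie left of 0 for stage, miR-150 for LP minus HP, and both arms of miR-142 lie right of 0 for LD minus HD.

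Other miRNAs known from immune cells were compared in the same way. Of a list of 10, 9 were in the table, and 6 were lower and 1 was higher in lactation at an adjusted p under 0.05. Of all miRNAs, 22.2% passed as lower and 22.2% as higher. miR-146a and miR-146b, which damp NF-kB signalling downstream of Toll-like receptors, differed by -1.76 (SE 0.43, limma adjusted p = 0.00593) and -3.08 (SE 0.42, limma adjusted p = 0.000145) on the log2 scale. miR-181d differed by -2.35 (SE 0.24, limma adjusted p = 1.79e-05), and miR-147, miR-181a and miR-212 were also lower. Of these, miR-212 rests on few reads. It was listed at 0 in HP3 and at up to 1.07 TPM in lactation, against 1.35 to 4.05 TPM in the non-lactating period. In the lactation libraries 3 reads are worth 0.224 to 0.498 TPM. The exception was miR-342, which is abundant in lymphoid cells and was higher in lactation by 0.63 (SE 0.24, limma adjusted p = 0.0471). That call was marginal, as the adjusted p was 0.297 without size factors and between 0.0516 and 0.0531 with a mean of at least 10 TPM, with every precursor entry or without the trend. With 1 library left out it was over 0.05 in 9 of 12 fits (up to 0.109), all but those without LP1, HD1 or LD1. Over the 9 the median log2 difference was -1.03. Several of these miRNAs, miR-146a and the miR-181 family among them, are also expressed outside the immune system.

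Some markers of other tissue parts also differed by stage, where 22.2% of all miRNAs passed in each direction. Of the 6 epithelial miRNAs, 5 were higher in lactation and none lower, and their summed level was 34301 to 39034 TPM for HP and 34490 to 44371 TPM for LP, against 20786 to 38785 TPM for HD and 14978 to 27929 TPM for LD. The endothelial pair from mir-126 was higher in lactation, with a log2 difference of 0.74 for miR-126-5p (SE 0.24, limma adjusted p = 0.0259). None of the 3 red blood cell miRNAs (miR-451, miR-144 and miR-486) passed the test for stage. Of the 4 stromal miRNAs 2 were lower in lactation, and neither of the 2 smooth muscle miRNAs passed. Of the 4 measured miRNAs of striated muscle 1 was higher. Of 3 liver and nerve miRNAs only miR-9-5p was in the table, and it was lower in lactation (-1.40, SE 0.26, limma adjusted p = 0.00103). It was 4.15 to 13.6 TPM in lactation and 19.1 to 35.0 TPM in the non-lactating period. No epithelial, endothelial or red blood cell marker was listed at 0 in any library. A TPM is a share of the library, and the part of tissue composition or of depth in the leukocyte differences was not tested.

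The second comparison set LP against HP, cows with low and high milk protein in lactation. Following the study's rule, a miRNA was called DE at an unadjusted p under 0.05 with an absolute log2 fold change over 0.8. miR-150 was DE and lower in LP, and it was the only member called. It did not pass adjustment over all miRNAs, and the libraries overlapped.

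miR-150 was 2121, 1219 and 1238 TPM in HP1, HP2 and HP3. In LP it was 155 TPM in LP1, 1559 TPM in LP2 and 364 TPM in LP3. LP1 and LP3 were the lowest lactation libraries and lay far below all 3 HP libraries, whereas LP2 lay among the HP values. The log2 difference of LP minus HP was -1.69 (SE 0.61, 95% interval -3.06 to -0.32, limma adjusted p = 0.251), which is 0.310 times the HP level. The two-sided exact permutation test on TPM gave p = 0.3, where 0.1 is the smallest that 3 against 3 allow. The DE call was lost without HP1 (-1.39), without LP1 (-1.05) or without LP3 (-1.53). Without LP2 the difference was -2.50 with a limma adjusted p of 0.0463. LP1 and LP3 came from the cows sampled at 85 days in milk, and the other 4 lactating cows were sampled at 70 to 80 days, so time in milk was not balanced between the groups.

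For the other 4 members the LP and HP libraries overlapped, and no difference passed. The log2 difference of LP minus HP was -0.09 for miR-142-5p (95% interval -0.82 to 0.65), 0.14 for miR-142-3p (-0.50 to 0.77), 0.28 for miR-155 (-0.31 to 0.86) and 0.41 for miR-223 (-0.52 to 1.34). Of all 388 miRNAs, 10.1% were DE and 4.12% were DE and lower in LP, against 1 of 5 members. HP and LP were fully apart in TPM for 17.3% of all miRNAs and for 0 of 5 members. The median log2 difference was 0.14 over the members and -0.01 over all miRNAs.

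The other immune miRNAs did not follow miR-150 in one direction. miR-342 was lower in LP by a log2 difference of -0.78 (SE 0.25, limma adjusted p = 0.224), just short of the limit of 0.8, so it was not DE, and it was DE at -0.81 without size factors. Its values were 1433, 1371 and 1613 TPM in HP1 to HP3 and 585, 1233 and 807 TPM in LP1 to LP3, with LP1 the lowest and LP2 the highest of LP, as for miR-150. miR-146a (1.27, limma adjusted p = 0.124) and miR-146b (1.59, limma adjusted p = 0.0583) were DE and higher in LP, and they were the 2 of 9 called. Markers of other cells were also called. miR-451 (1.36, limma adjusted p = 0.203) and miR-144 (1.58, limma adjusted p = 0.272) were DE and higher in LP. Along with that of miR-146a, these calls were lost with all 12 libraries in 1 fit. The call of miR-144 was also lost in 4 of 6 fits with 1 library left out. The remaining red blood cell miRNA, miR-486, was not DE (0.20, SE 0.37, limma adjusted p = 0.873). The summed red blood cell miRNAs were 781 to 1378 TPM in HP and 1126 to 2041 TPM in LP. miR-143, a smooth muscle miRNA, was DE and higher in LP (0.85, SE 0.27, limma adjusted p = 0.224), a call not followed through the alternatives. The 2 smooth muscle miRNAs summed to 58589 to 84391 TPM in HP and 112785 to 145006 TPM in LP without overlap. Nearly all of that sum was miR-143. The other, miR-145, was 4.56 to 73.67 TPM in lactation and was not DE (-0.61, limma adjusted p = 0.858), with the opposite sign. None of the 6 epithelial miRNAs was DE, with miR-200b at 0.65 (SE 0.25, limma adjusted p = 0.251), nor was any of the 2 endothelial, 4 stromal or 4 striated muscle miRNAs. Their part in the difference of miR-150 was not tested.

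The third comparison set LD against HD, cows with low and high milk protein in the non-lactating period. Both arms of miR-142 were DE and higher in LD. They are a pair from 1 hairpin and are not independent of each other, and no miRNA passed adjustment in this comparison.

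The normalized TPM of miR-142-5p was 5737, 6450 and 9491 in HD1 to HD3 and 11915, 12874 and 13165 in LD1 to LD3, so every LD library lay above every HD library. Without size factors the TPM values did not overlap either, but LD1 then stood alone at 17588 while LD2 and LD3, at 9674 and 10015, were close to HD3 at 8708. The log2 difference of LD minus HD was 0.81 (SE 0.29, 95% interval 0.12 to 1.49, limma adjusted p = 0.936), or 1.75-fold. For miR-142-3p the normalized TPM averaged 144 ± 66.7 in HD and 299 ± 38.3 in LD (SD, n = 3) without overlap, while in TPM LD2 at 197 lay just below HD1 at 198. Its log2 difference was 1.11 (SE 0.38, 95% interval 0.23 to 1.99, limma adjusted p = 0.936), or 2.16-fold. With 3 libraries against 3, the exact permutation test on normalized TPM gave the smallest p it allows, 0.1, for each arm.

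The calls depended on the scale. On TPM without size factors the log2 differences were 0.57 for miR-142-5p and 0.88 for miR-142-3p, and neither was DE. The median of all miRNAs then moved from 0.03 to -0.16, and the calls over all miRNAs moved from 8 higher and 5 lower to 0 higher and 3 lower. The call of miR-142-5p was also lost without HD1, HD2, LD2 or LD3 (0.67 to 0.78), and with days before calving in the model, where the difference of 0.78 lay under the limit of 0.8. miR-142-3p was not DE without HD2 (0.77) or without LD1 (1.05).

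miR-150, miR-155 and miR-223 were not DE between HD and LD. miR-150 was 1318, 761 and 408 TPM in HD1 to HD3 and 1760.2, 327 and 455 TPM in LD1 to LD3, a log2 difference of 0.02 (95% interval -0.98 to 1.03). The difference was 0.45 for miR-155 (-0.34 to 1.24) and 0.03 for miR-223 (SE 0.54). In all, 2 of 5 members were DE, both higher, where 3.35% of all miRNAs were DE and 2.06% were DE and higher in LD. In TPM, LD lay above HD without overlap for 1.55% of all miRNAs, miR-142-5p included. The number of miRNAs past adjustment was 0, and 4.9% had a limma p under 0.05. The median log2 difference was 0.45 over the members and 0.03 over all miRNAs.

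None of the 9 other immune miRNAs was DE between HD and LD. The nearest in size was miR-146a, with a log2 difference of 1.00 (SE 0.74, limma adjusted p = 0.994). miR-126-5p, an endothelial miRNA, was DE and higher in LD (1.15, SE 0.40, limma adjusted p = 0.936). That call was lost without size factors and in 4 of 6 fits with 1 library left out. The other endothelial miRNA, miR-126-3p from the same hairpin, was not DE (0.30, SE 0.27, limma adjusted p = 0.994). The summed red blood cell miRNAs were 413 to 773 TPM in HD and 680 to 6127 TPM in LD, where LD2 was the high library. Their part in the difference of miR-142 was not tested.

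Whether the phenotype difference depended on stage was tested as (LP minus HP) minus (LD minus HD) over the 12 libraries. The estimates were -0.96 for miR-142-3p (SE 0.48), -0.88 for miR-142-5p (SE 0.46) and -1.70 for miR-150 (SE 0.86). They were -0.16 for miR-155 (SE 0.42) and 0.39 for miR-223 (SE 0.70), and the limma adjusted p of the 5 members was 0.960 to 0.993. No member had an unadjusted limma p under 0.05, and 5.15% of all miRNAs had one, 11 higher and 9 lower with size factors and 14 higher and 3 lower without them. The phenotype differences of miR-150 and miR-142 are therefore not shown to differ between lactation and the non-lactating period. With 1 library left out, the unadjusted limma p fell under 0.05 for miR-150 without LP2 (-2.49) or LD2 (-2.04), for miR-142-5p without HP1 (-1.22) or HD3 (-1.13), and for miR-142-3p without LP3 (-1.14) or HD3 (-1.33).

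Within the non-lactating period the cows were sampled at different distances from calving, which were 35, 29 and 21 days for HD1 to HD3 and 39, 23 and 20 days for LD1 to LD3. The lymphocyte miRNA miR-150 was higher in cows sampled farther from calving. Its normalized TPM was 1193 at 39 days (LD1), 893 at 35 days (HD1), 694 at 29 days (HD2), 435 at 23 days (LD2), 445 at 21 days (HD3) and 598 at 20 days (LD3). The 3 cows sampled at 29 days or more all exceeded the 3 nearer to calving. The slope was 0.66 per 10 days on the log2 scale (SE 0.16, 95% interval 0.29 to 1.03, limma adjusted p = 0.0441), or 1.58-fold per 10 days.

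The relation rested on few cows. Pearson's r between log2(normalized TPM + 1) and days was 0.921 (n = 6, exact permutation p = 0.0139, adjusted over 388 miRNAs 0.158). Spearman's rho was 0.771 (n = 6, exact permutation p = 0.103, adjusted 0.335). Without LD1 and HD1, the cows farthest from the median day, r was 0.578. The adjusted p of the slope was over 0.05 without HD1 (0.112), HD3 (0.129), LD1 (0.220) or LD3 (0.0634), 0.0534 with the phenotype in the model and 0.0507 without the trend. Within HD, miR-150 fell in order from 35 to 21 days, while within LD the cow at 20 days exceeded the cow at 23 days. Each phenotype held too few cows for a correlation of its own.

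Days before calving were not the only quantity that differed among these 6 cows. The size factor of the library rose with days (r = 0.957, n = 6, exact permutation p = 0.00972; rho = 0.829, exact permutation p = 0.0583), and the implied reads fell (r = -0.834, n = 6, exact permutation p = 0.0542; rho = -0.543, exact permutation p = 0.297). Days after dry-off ran the other way, with r = -0.740 (n = 6, exact permutation p = 0.0972; rho = -0.783, exact permutation p = 0.0778). On TPM without size factors the slope of miR-150 was 1.2 per 10 days, where the median slope of all miRNAs rose from -0.02 to 0.41. Relative to that median, miR-150 was higher farther from calving on both scales. Markers of other cells had slopes of their own. Past adjustment were miR-199a-5p, 1 of 4 stromal miRNAs, with a slope of 1.12 (SE 0.29, limma adjusted p = 0.0468) and miR-141, 1 of 6 epithelial miRNAs, with -0.98 (SE 0.24, limma adjusted p = 0.0441). At an unadjusted p under 0.05, epithelial miR-429 had 0.63 (SE 0.22, limma adjusted p = 0.118) and smooth muscle miR-143 had -0.72 (SE 0.30, limma adjusted p = 0.157), while no endothelial, red blood cell or striated muscle miRNA passed. Their part in the slope was not tested, and time to calving and time since dry-off cannot be told apart from each other in this design.

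The other members had no slope that passed. Per 10 days the slopes were -0.27 for miR-142-5p (95% interval -0.82 to 0.28), -0.14 for miR-142-3p (-0.98 to 0.70), -0.41 for miR-155 (-0.87 to 0.04) and 0.09 for miR-223 (-0.73 to 0.91). Without size factors they were 0.27, 0.40, 0.12 and 0.61, so the direction of both miR-142 arms and of miR-155 followed the scaling. Without LD1 the slope was -0.74 for miR-142-5p (limma adjusted p = 0.203) and -0.72 for miR-155 (limma adjusted p = 0.190). Of all miRNAs, 27.8% had a limma p under 0.05 for the slope, and 5.15% were past adjustment and higher farther from calving, miR-150 being 1 of 5 members there. The calls at p under 0.05 were 56 higher and 52 lower farther from calving with size factors, and 168 higher and 8 lower without them.

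**Figure D3:**
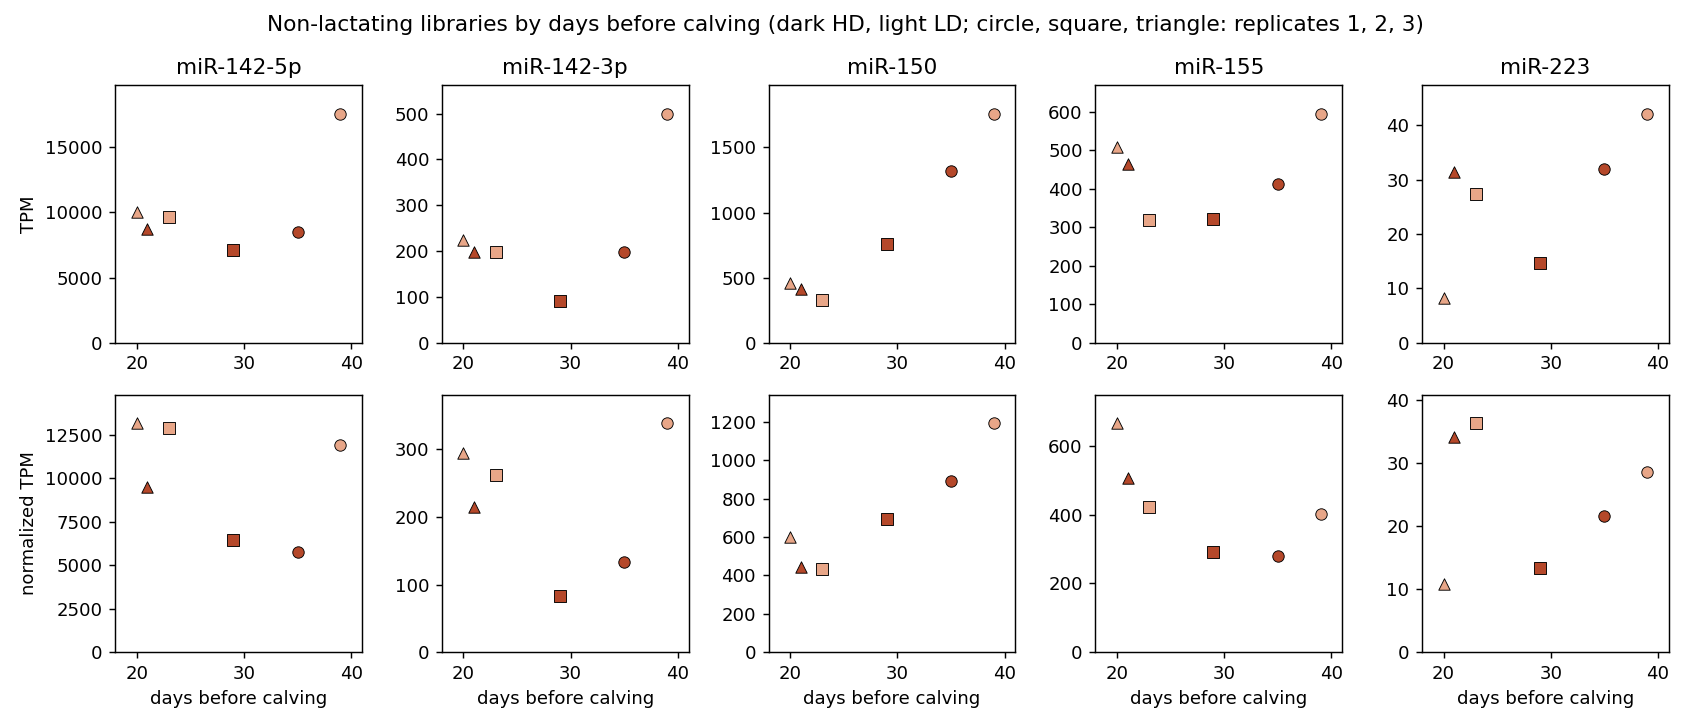
Leukocyte miRNAs in the 6 non-lactating cows against days before calving (horizontal axis, days), with TPM in the upper row and normalized TPM in the lower row, both linear and starting at 0. Each point is 1 cow; miR-150 is highest in the cows at 35 and 39 days on both scales, while the pattern of the other members changes between the rows.

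Among the 9 other immune miRNAs, 3 were higher and 4 lower farther from calving at a limma p under 0.05, where 27.8% of all miRNAs passed. miR-342 had a slope of 0.51 per 10 days (SE 0.19, limma adjusted p = 0.137) in the direction of miR-150, as had miR-132 (1.03, SE 0.23, adjusted p = 0.0369) and miR-147 (0.80, SE 0.23, adjusted p = 0.0624). miR-146b had the opposite slope of -1.18 (SE 0.27, limma adjusted p = 0.0369), which was -0.64 (adjusted p = 0.111) without size factors. Also lower farther from calving were miR-181a (-0.62, SE 0.15, limma adjusted p = 0.0441), miR-146a (-1.16, SE 0.36, adjusted p = 0.0835) and miR-181d (-0.54, SE 0.23, adjusted p = 0.160). miR-146b was 1507 to 1780 TPM in the cows at 35 and 39 days, 1013 TPM in HD2, 1797 TPM in LD2, and 3807 and 3816 TPM in the cows at 21 and 20 days.

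The 2 arms of mir-142 were compared within each library, where a ratio needs no size factor. Reads of the 5p arm outnumbered those of the 3p arm in every library, by 22.7 (HP1) to 78.0 (HD2), with a median of 44.3. The mean log2 ratio was 5.42 with an SD of 0.468 over the 12 libraries, which places mir-142 at rank 8 of the 36 hairpins listed with both arms when ordered by the size of the imbalance. The group means of the log2 ratio were 5.39 ± 0.779 for HP and 5.16 ± 0.270 for LP, and 5.71 ± 0.483 for HD and 5.41 ± 0.245 for LD (SD, n = 3). Lactation minus non-lactating was -0.28 (SE 0.28, limma adjusted p = 0.411, two-sided exact permutation p = 0.307), where 19.4% of the 36 hairpins passed. Over all 12 libraries, with the group differences included, the ratio varied less than either arm by itself. The SD in log2 TPM was 0.625 for 5p and 0.638 for 3p. This did not hold in every group, as within HP the ratio (SD 0.779) varied more than either arm. With the group means taken out, the arms correlated at 0.272.

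**Figure D4:**
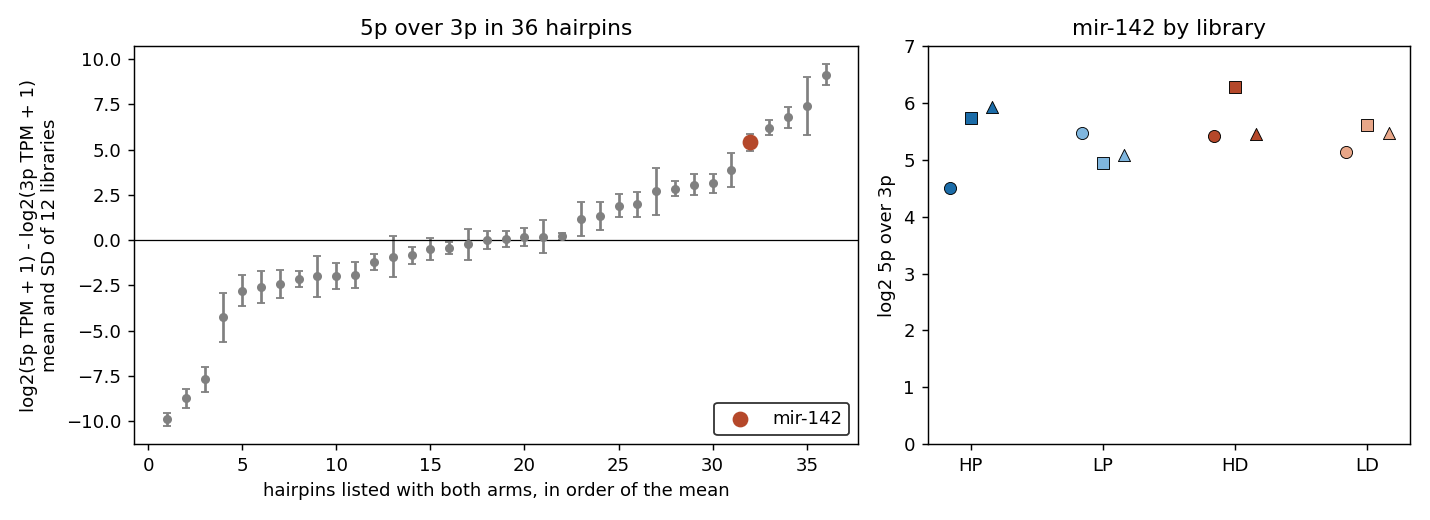
Balance of the 5p and 3p arms as log2(5p TPM + 1) minus log2(3p TPM + 1), for the 36 hairpins listed with both arms (left, mean and SD of 12 libraries, ordered by the mean) and for mir-142 in each library by group (right). The mir-142 hairpin lies at 5.42, on the side where the 5p arm dominates, with HP1 the lowest and HD2 the highest library.

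The members did not move as 1 unit across the libraries. On log2(normalized TPM + 1) over 12 libraries, the Pearson correlation was 0.708 between miR-142-5p and miR-142-3p, 0.706 between miR-142-5p and miR-155, and 0.659 between miR-142-3p and miR-155. After the group means were taken out, these were 0.272, 0.0668 and 0.525, so most of the likeness of miR-142-5p and miR-155 lay between the groups. miR-150 correlated negatively with miR-142-5p, at -0.388 over all libraries and -0.692 within groups. miR-223 was near 0 with the other 4 (-0.234 to 0.109). These values are descriptions over libraries that share the 4 groups and a common scaling.

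For each member, the 3 most similar of the 233 other miRNAs with a mean of at least 10 TPM were listed by the same correlation over 12 libraries. miR-155 was nearest to miR-146b (r = 0.957, within groups 0.876), miR-361 (0.931) and miR-411a (0.930). miR-150 was nearest to miR-505 (r = 0.874, within groups 0.927), then miR-342 (0.758) and miR-423-3p (0.745). miR-142-5p was nearest to miR-1271 (0.816), miR-301a (0.812) and miR-9-5p (0.795), and miR-142-3p to miR-142-5p (0.708), miR-301a (0.703) and miR-21-5p (0.700). miR-223 had no close companion, with miR-133a (0.537), miR-451 (0.450) and miR-144 (0.426) as the highest. The last pair are red blood cell miRNAs, and miR-133a is a muscle miRNA. miR-9-5p, near miR-142-5p, came from the liver and nerve list.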

How the data were processed

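Small RNA was sequenced by the authors from 12 mammary biopsies. The authors trimmed reads with Cutadapt 2.8 and Trimmomatic 0.36, kept lengths of 18 to 30 nt and aligned these with Bowtie 1.1.1 (genome ARS-UCD1.2). Known miRNAs (miRBase 22.0) were quantified with miRDeep2. The deposited table holds RPM values, named TPM by the authors, rounded and without length correction, in 426 entries for 388 mature miRNAs. The number of table columns left unused was 0. The authors tested read counts with DESeq2; those counts were not used here.

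A mature miRNA with several precursors was represented by the entry of highest mean. Depth was read from the values, which in every library were whole multiples of 1 step within 0.006 TPM, and 3 reads are worth 0.127 to 0.498 TPM. Intervals and this floor cover counting error only. Groups follow the sample labels, and days were taken from the study's list of cows by group and replicate number. Values were scaled by median-of-ratios size factors, computed among the libraries that entered a fit, and analysed as log2(normalized TPM + 1), which understates changes of low miRNAs. Fits used limma 3.58.1 in R 4.3.3 with a mean-variance trend across all 388 miRNAs, within a stage for HP vs LP, HD vs LD and days, and over 12 libraries for stage and interaction, with Benjamini-Hochberg adjustment. The fits were tested on simulated data. Single values were tested with two-sided exact permutation tests (Python 3.11.15, scipy 1.17.1). The alternatives were no size factors, pseudocounts of 0.1 and 5, a mean of at least 10 TPM, every precursor entry, no trend, a replicate block, other samples or covariates in the fit, and leaving out each library.

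The members and marker lists were chosen with earlier results of these data known. Named were the 5 members and the 3 miRNAs most similar to each member. Also named were listed markers of leukocytes, other immune cells, red blood cells, endothelium, epithelium, stroma, muscle, liver and nerve. The limma p-values weigh a difference against the spread between cows of a group. For days they weigh the slope against the scatter of the non-lactating cows around the line. Exact permutation p-values come from relabelling the cows.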

Additional observations from a re-analysis of the deposited data

Results flagged for a closer look

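Among the 6 non-lactating libraries, 3 values stood farther from the rest than Dixon's 95% limit, out of 22 sets of 6 values tested (5 miRNAs on 2 scales and the arm ratio, in each stage), where chance gives about 1 in 20. miR-142-5p was 17588 TPM and miR-142-3p 500.1 TPM in LD1, each the highest of its set. LD1 also had the joint highest size factor (1.48), and after division by it neither value stood apart. The ratio of 5p to 3p reads of mir-142 was 78.0 in HD2, the highest library, where the others of the stage were at 35.2 to 49.0 and miR-142-3p was at its lowest, 90.7 TPM.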

How the results depend on the processing

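The number of DE miRNAs was 39 for HP vs LP, 22 with a pseudocount of 5, and 24 to 53 with 1 library left out. For HD vs LD it was 13, against 3 without size factors, 7 with a pseudocount of 5, 8 with a mean of at least 10 TPM and 6 to 36 with 1 library left out. Between the stages 172 miRNAs passed, and 114 with a mean of at least 10 TPM, where fewer miRNAs were tested. The interaction gave 20 miRNAs, 8 with that filter and 13 to 32 with 1 library left out. Days gave 108, against 176 without size factors. The arm ratio gave 7 hairpins, 11 with a pseudocount of 5 and 2 to 13 with 1 library left out.

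Without size factors the direction turned for miR-150 (-0.21) and miR-223 (-0.19) in LD minus HD, for miR-155 in the interaction (0.028), and for the slopes of miR-142-5p (0.27), miR-142-3p (0.40) and miR-155 (0.12). With 1 library left out, uncalled differences crossed 0 within these ranges: in LP minus HP, miR-142-5p -0.42 to 0.13 and miR-142-3p -0.035 to 0.25; in LD minus HD, miR-150 -0.36 to 0.32 and miR-223 -0.32 to 0.52; for stage, miR-150 -0.046 to 0.68 and miR-223 -0.10 to 0.32; in the interaction, miR-155 -0.46 to 0.066 and miR-223 -0.11 to 0.74; for days, miR-142-3p -0.85 to 0.035 and miR-223 -0.27 to 0.32. The cause of these shifts was not tested.

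Libraries of the same replicate number came from different cows. Their deviations from the group means correlated at -0.201, -0.256 and 0.00949 between HP and LP. Between HD and LD they correlated at 0.547, -0.113 and 0.504, so replicates 1 and 3 deviated alike there. In the non-lactating period the replicate number also went with days before calving and with scaling. HD1 and LD1 were at 35 and 39 days with size factors of 1.476, and HD3 and LD3 at 21 and 20 days. A fit of days with the block therefore mostly compares cows close in days. With the replicate number as a block, HP vs LP gave 34 and HD vs LD 17 DE miRNAs, days 39 miRNAs and the arm ratio 12 hairpins. The slope of miR-150 was then 0.86 (limma adjusted p = 0.552), a call lost, and the slopes of miR-223 and miR-142-3p were -1.11 and -1.10. The block changed no other call of a member. Of the other miRNAs named, the block ended the calls of miR-144 in LP minus HP, of miR-342 for stage, and of miR-342 and miR-132 for days.

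Planned count-based tests and TMM scaling were not run, since the deposited RPM values could not be turned into read counts with certainty. Depth limits miR-223 most, with 130 to 739 implied reads.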
